A study of Drosophila melanogaster with 26 samples.

Results

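The loss of the estrogen-related receptor dERR was examined in larvae that also lacked Sima, with both genotypes kept in low oxygen. The comparison took 6 of the 26 arrays in the study, namely the 3 arrays of *sima07607,dERR1/sima07607,dERR2* double-mutants in hypoxia and the 3 arrays of homozygous *sima07607* mutants in hypoxia. The arrays were chosen by their labelled genotype and oxygen level, and no measured value entered the choice. Double-mutants carried recombinant chromosomes, each with the *sima07607* P-element insertion and 1 of 2 *dERR* alleles, whereas *sima* mutants came from parents that held the same insertion over a GFP-marked balancer. Animals in both groups were late-L3 larvae, staged shortly before pupariation and kept at 25°C for 6 h in 4% oxygen, with RNA taken from at least 10 whole larvae per replicate. Both groups therefore lacked normal *sima* function, and the comparison holds no animal with it. The further groups set beside it were double-mutant and *sima* larvae in normoxia (n = 3 each), and *dERR1/dERR2* mutants (n = 3) and *w1118* controls (n = 5) in hypoxia, none of which shared an array with the 6.

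dERR is an orphan nuclear receptor, a DNA-binding transcription factor known in flies for the larval switch to glycolytic metabolism. *sima* encodes dHIFα, the oxygen-sensitive subunit of the hypoxia-inducible factor, which is degraded in normal oxygen after prolyl hydroxylation by the *Hph* (fatiga) product and which in hypoxia activates its targets together with Tango. Hypoxia-inducible factor is also a well-known activator of glycolytic genes in mammals. The comparison asks which transcripts differ on loss of dERR in larvae without that regulator.

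Transcripts of carbohydrate metabolism were among those lower in double-mutants. Of 10 glycolytic transcripts measured, 7 were lower in double-mutants than in *sima* mutants in hypoxia, 0 were higher, and the median log2 change was -1.60, beside a median of -0.01 over all 18769 probe sets. Of 10 transcripts for glycogen and trehalose metabolism 5 were lower and 0 higher, with a median of -0.98. Both lists were picked with earlier results of these data known, and their counts are a description. Over all probe sets, 195 (1.04%) passed both limits of a call in limma (1.5-fold or more, and an adjusted p under 0.01), of which 90 (0.48% of those tested) were higher and 105 (0.559%) lower. All 195 had groups of 3 arrays that did not overlap, as did 17.7% of all probe sets. Of the 195, 163 are listed for 1 gene and 32 for several or none. At a change of at least 4-fold there were 31 higher and 23 lower probe sets. Without replicate 1 of the double-mutants the count of calls was 123, and in a fit of the 6 arrays alone it was 51. All samples were whole larvae, in which fewer cells of a type and less RNA per cell cannot be told apart.

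The array values of the mutated genes came first. *ERR*, on arm 3L, had log2 intensities of 4.53, 5.22 and 4.70 in double-mutants and 5.23, 5.15 and 4.97 in *sima* mutants, so the groups overlapped (change -0.30, SE 0.14, adjusted p = 0.377). Its level was 4.35 ± 0.25 (SD, n = 3) in *dERR* mutants and 5.23 ± 0.08 (SD, n = 5) in *w1118*, where the difference was called (-0.89, SE 0.13, adjusted p = 0.000107). The *ERR* probe set thus did not separate the double-mutant arrays from those of *sima*, and how its probes lie relative to the 2 alleles was not examined. *sima*, on 3R, had log2 intensities of 5.52, 5.50 and 5.61 in double-mutants and 5.35, 4.97 and 5.38 in *sima* mutants (change 0.31, adjusted p = 0.457). These levels compare with 8.06 ± 0.13 (SD, n = 3) in *dERR* mutants and 7.86 ± 0.31 (SD, n = 5) in *w1118*, so that all 6 arrays carried the low *sima* transcript of the insertion.

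Among glycolytic transcripts the largest fall was that of *Pfk*, which encodes phosphofructokinase, the committed step of the pathway. *Pfk* had log2 intensities of 7.37, 7.15 and 7.81 in double-mutants and 10.19, 10.26 and 10.05 in *sima* mutants. The groups lay far apart, and the level in double-mutants was 6.6-fold lower (log2 change -2.72, SE 0.22, adjusted p = 9.17e-08). *Pgi*, for the isomerase that acts just before it, had values of 9.18, 8.96 and 9.14 in double-mutants against 11.67, 11.43 and 11.58 in *sima* mutants (-2.46, SE 0.24, adjusted p = 1.57e-06). Of the enzymes that follow, *Pgk* (phosphoglycerate kinase) had values of 8.47, 8.26 and 8.59 in double-mutants against 10.40, 10.21 and 10.31 in *sima* mutants (-1.86, SE 0.18). The aldolase gene *Ald1*, named like *Tpi* and *Hex-A* after its values were seen, was lower by both probe sets, at -1.78 (SE 0.32, adjusted p = 0.00206) and -1.51 (SE 0.16). The phosphoglycerate mutase gene *Pglym78* was at 8.15, 8.18 and 8.23 in double-mutants, against 10.10, 9.68 and 10.02 in *sima* mutants (-1.74, SE 0.18, adjusted p = 2.57e-06). *Gapdh1* (glyceraldehyde-3-phosphate dehydrogenase) and *Eno* (enolase) changed by -1.25 (SE 0.20) and -1.22 (SE 0.14). The calls thus ran along the pathway from *Pgi* to *Eno* with *Tpi* as the exception, and in each called gene the 3 double-mutant arrays lay below the 3 *sima* arrays.

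The glycolytic transcripts that did not pass were *Tpi* (triose phosphate isomerase; -1.45, adjusted p = 0.0247), *Hex-A* (hexokinase; -0.75, adjusted p = 0.0848) and *Hex-C* (hexokinase; 0.60, adjusted p = 0.722). Outside the list, and chosen after their values were seen, *Gapdh2* was lower at 2 probe sets (-1.61 and -1.50) and *PyK*, for pyruvate kinase, at -1.29 (SE 0.16, adjusted p = 2.93e-05). In normoxia the changes of *Gapdh2* were larger (-2.71 and -2.62), and the difference between oxygen levels was not called in limma (adjusted p = 0.38 and 0.54). *ImpL3*, which encodes the lactate dehydrogenase at the end of the pathway, was at 10.74, 11.34 and 11.35 in double-mutants and 11.90, 11.95 and 11.47 in *sima* mutants. These groups did not overlap, but the change of -0.63 (SE 0.34, adjusted p = 0.457) did not pass. Between *dERR* mutants and *w1118* in hypoxia *ImpL3* was called lower (-1.83, adjusted p = 0.000372). The difference between these 2 changes was not called (adjusted p = 0.184). The call of *Ald1* at its brighter probe set was lost without replicate 1 of *sima* (adjusted p = 0.0178), replicate 1 of the double-mutants (0.0116) or replicate 2 of the double-mutants (0.0136), whereas its other probe set was called without each array in turn.

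Transcripts for the storage and release of glucose were lower as well. *Glyp*, for the glycogen phosphorylase that releases glucose units, had log2 intensities of 9.16, 8.47 and 9.02 in double-mutants and 11.21, 10.67 and 11.23 in *sima* mutants (-2.15, SE 0.34, adjusted p = 0.00067). *Glys*, for the glycogen synthase that adds them, had values of 7.82, 7.34 and 7.79 in double-mutants against 9.89, 9.48 and 9.63 in *sima* mutants (-2.02, SE 0.23, adjusted p = 1.37e-05). The branching enzyme gene *AGBE* was at 6.63, 5.88 and 6.49 in double-mutants, against 8.86, 8.40 and 8.55 in *sima* mutants (-2.27, SE 0.30, adjusted p = 7.74e-05). Genes for breakdown and for synthesis of glycogen therefore fell together. *Pgm1*, for the phosphoglucomutase that joins glycogen to glycolysis, changed by -1.62 (SE 0.28, adjusted p = 0.00143; 0.0121 without replicate 1 of *sima*). *UGP*, for the enzyme that makes UDP-glucose, was at the dim end of the array, at 2.82, 3.02 and 2.76 in double-mutants and 4.13, 4.10 and 3.66 in *sima* mutants (-1.09, SE 0.17).

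**Figure D1:**
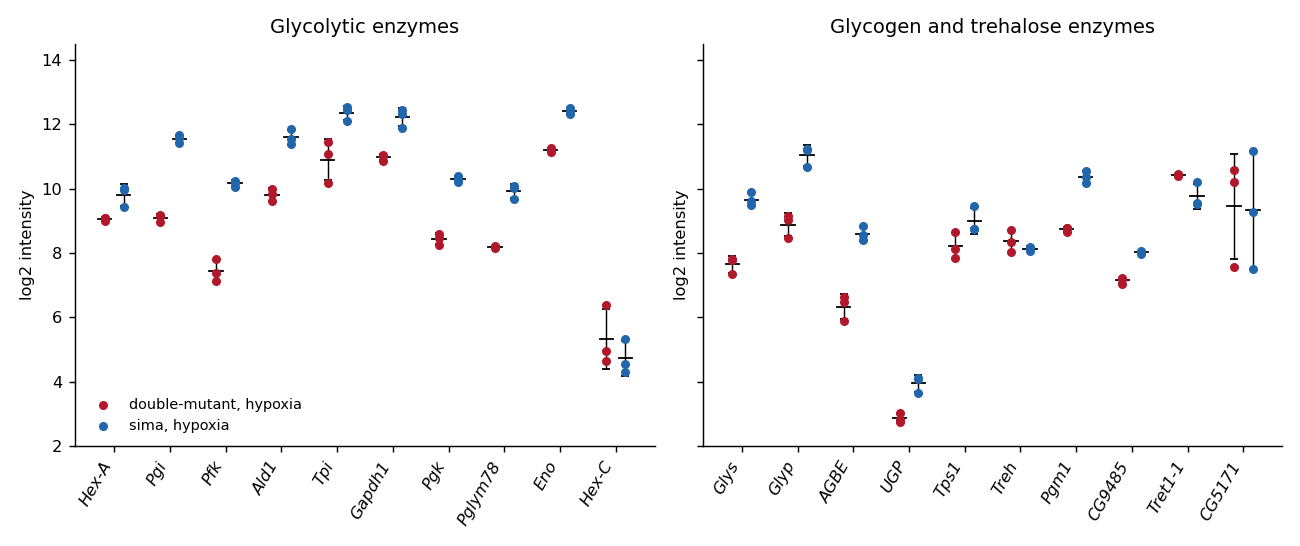
Log2 intensity of the 10 glycolytic (left panel) and 10 glycogen and trehalose genes (right panel) measured, in each double-mutant (left of each pair) and *sima* array in hypoxia. Points are arrays and bars the mean ± SD (n = 3). The double-mutant points lie below all *sima* points for 7 called glycolytic genes and for 5 called glycogen genes, with *Pfk* 6.6-fold lower.

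Further sugar genes were picked after their values were seen. *PhKgamma*, for the catalytic subunit of the phosphorylase kinase that activates glycogen phosphorylase, was lower at 3 probe sets (-1.05, -0.94 and -0.89), the last of which lost its call without replicate 1 or 2 of *sima* or replicate 2 or 3 of the double-mutants (highest adjusted p 0.0483). *Mpi*, for mannose-6-phosphate isomerase, was lower (-0.82, SE 0.11), and *Galk*, for galactokinase, was higher (1.16, SE 0.17). The glucose transporter gene *Glut1* had changes of -1.18 (adjusted p = 0.000682), -0.80 and 0.58 (adjusted p = 0.492) at 3 probe sets, so its probes did not move alike. The middle one, called at an adjusted p of 0.00721, lost its call whichever of the 6 arrays was left out, and also with the replicate numbers as a block (0.0118). In the pentose phosphate pathway 1 of 6 transcripts was lower, beside 0.559% of all probe sets. It was *Rpi*, for ribose-5-phosphate isomerase (-0.92, SE 0.14, adjusted p = 0.000408), and the list's median was -0.53. Of 5 dehydrogenases for lactate, glycerol phosphate and related substrates the 1 that fell was *Sodh1*, for sorbitol dehydrogenase, which was at 6.78, 6.70 and 6.91 in double-mutants and 9.0, 8.18 and 9.30 in *sima* mutants. Its adjusted p was 0.00788 in limma, and the call was lost without any 1 array except replicate 2 of *sima* (highest adjusted p 0.0509, without replicate 3 of *sima*).

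Mitochondrial genes showed no such fall. Of 12 transcripts of the TCA cycle and 26 of oxidative phosphorylation, 0 were called in limma, with 2 and 1 at an unadjusted p under 0.05 and 0 by SAM. Over all probe sets 1.04% were called in limma, and 2437 of 18769 were at an unadjusted p under 0.05. The medians of the 2 lists were 0.06 and 0.23. Members below 0 numbered 5 of the 12 and 2 of the 26, beside 9864 of all 18769 probe sets. In *dERR* mutants against *w1118*, where 6.16% of all probe sets were called and 2.4% were higher, 4 of the 12 and 6 of the 26 were higher, with medians of 0.63 and 0.68. The difference between the 2 backgrounds was itself called for 0 of the 12 and 0 of the 26 (5 and 5 at an unadjusted p under 0.05), beside 0.682% of all probe sets. For that difference 2912 of all 18769 probe sets were at an unadjusted p under 0.05.

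Of 10 genes of the HIF pathway and its targets, 0 were called between double-mutants and *sima* mutants in hypoxia by limma or SAM, with 2 at an unadjusted p under 0.05. Over all probe sets 1.04% were called in limma, and 2437 of 18769 were at an unadjusted p under 0.05. With *sima* present, 7 of the 10 were lower in *dERR* mutants than in *w1118*, with a median of -0.75, beside 3.77% of all probe sets called lower there. A difference between the 2 backgrounds was called for 3 of the 10, beside 0.682% of all probe sets. *Hph* itself was at 8.09, 8.28 and 8.65 in double-mutants and 8.67, 8.85 and 8.39 in *sima* mutants, which overlapped (-0.30, SE 0.19, adjusted p = 0.58). Between *dERR* mutants and *w1118* it was called lower (-0.83, adjusted p = 0.00234), and the difference between the backgrounds was not called (adjusted p = 0.326). Its hypoxic mean was 8.64 in *sima* mutants against 11.61 in *w1118*. *CG7737*, for a spermine oxidase, changed by -0.02 (SE 0.23) between double-mutants and *sima* mutants but by -2.34 (SE 0.20) between *dERR* mutants and *w1118*, and that difference was called (2.33, SE 0.30, adjusted p = 0.00013). Its mean in *sima* mutants was 5.27 in hypoxia and 5.15 in normoxia, against 8.24 in *w1118* in hypoxia. The level was thus already low in *sima* mutants with dERR present. *Nmnat*, for an enzyme of NAD synthesis, changed by -0.01 (adjusted p = 0.988) and *Alas*, for the first enzyme of heme synthesis, by -0.44 (adjusted p = 0.153). Between *dERR* mutants and *w1118* in hypoxia *Alas* was called lower (-1.05, adjusted p = 3.41e-05) and *Nmnat* was not called (-0.50). The difference between the backgrounds was not called for *Alas* (adjusted p = 0.121) or *Nmnat* (0.152). *Hph* has 2 probe sets and *Nmnat* 3, and the brightest of each is given.

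The largest fall of all was in a lysozyme gene of the 3L cluster. *LysX* had log2 intensities of 6.17, 7.78 and 6.38 in double-mutants and 12.37, 12.74 and 12.24 in *sima* mutants, a level 50.9-fold lower in double-mutants (-5.67, SE 0.49, adjusted p = 3.11e-07). A second lysozyme gene, *LysP*, was at 2.87, 3.38 and 3.14 in double-mutants against 6.27, 5.35 and 5.84 in *sima* mutants (-2.69, SE 0.24). Both belong to a list of 20 digestive transcripts of the midgut, of which 3 fell and 0 rose, beside 0.559% of all probe sets called lower. The other was the serine protease gene *Jon65Aiii* (-0.68, SE 0.11, adjusted p = 0.00102, and 0.0117 without replicate 1 of the double-mutants). The list's median was -0.45, with 15 of 20 members below 0. Its mean log2 level was 10.20 to 10.88 over double-mutant arrays and 10.96 to 11.45 over *sima* arrays, so the groups did not overlap. In normoxia 2 of the 20 were lower and 0 higher, with a median of -0.04. The list went the other way between *dERR* mutants and *w1118* in hypoxia. There 8 of the 20 were higher and 1 lower, beside 2.4% and 3.77% of all probe sets, with a median of 0.97. The difference between these backgrounds was called for 3 of the 20, beside 0.682% of all probe sets. The lysozyme genes are close paralogs, and signal shared between their probe sets cannot be told apart.

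The other large falls belonged to varied families. *mthl8*, for a receptor of the methuselah family, was at 3.53, 3.34 and 4.17 in double-mutants and 7.80, 7.93 and 7.47 in *sima* mutants (-4.05, SE 0.37). *CG3397* was at 3.42, 3.68 and 3.71 in double-mutants, against 7.92, 7.03 and 7.18 in *sima* mutants (-3.77, SE 0.44, adjusted p = 1.59e-05). *CG5966*, for a predicted triglyceride lipase, was at 5.78, 7.29 and 6.65 in double-mutants against 10.36, 10.53 and 9.84 in *sima* mutants (-3.67, SE 0.72). In each of these 3 genes no double-mutant array reached the lowest *sima* array. The double-mutant arrays of *CG5966* spread widely, and leaving out any 1 array except replicate 2 of the double-mutants ended its call (highest adjusted p 0.0466). *CG8066*, *CG15695* and the hairpin RNA gene *hpRNA:CR32207* changed by -3.06, -2.97 and -2.64. *CG43074* was at 2.62, 2.63 and 2.89 in double-mutants and 5.76, 5.20 and 5.0 in *sima* mutants (-2.61, SE 0.20, adjusted p = 6.22e-08), and among the 8 groups it was the *sima* mutants in hypoxia that stood apart. *Odc1*, for the ornithine decarboxylase that starts polyamine synthesis, was at 6.02, 8.53 and 7.44 in double-mutants against 9.97, 10.24 and 9.42 in *sima* mutants (-2.55, SE 0.45). The calls of *Odc1* and of *CG13405* (-2.54, SE 0.45) did not outlast the loss of some single arrays. With 1 array left out their changes were -3.15 to -1.89 and -3.04 to -2.17. That of *Odc1* was lost without replicate 1 or 2 of *sima* or replicate 1 of the double-mutants (highest adjusted p 0.0177), and that of *CG13405* without replicate 2 or 3 of *sima* or replicate 1 or 2 of the double-mutants (highest adjusted p 0.0224).

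**Figure D2:**
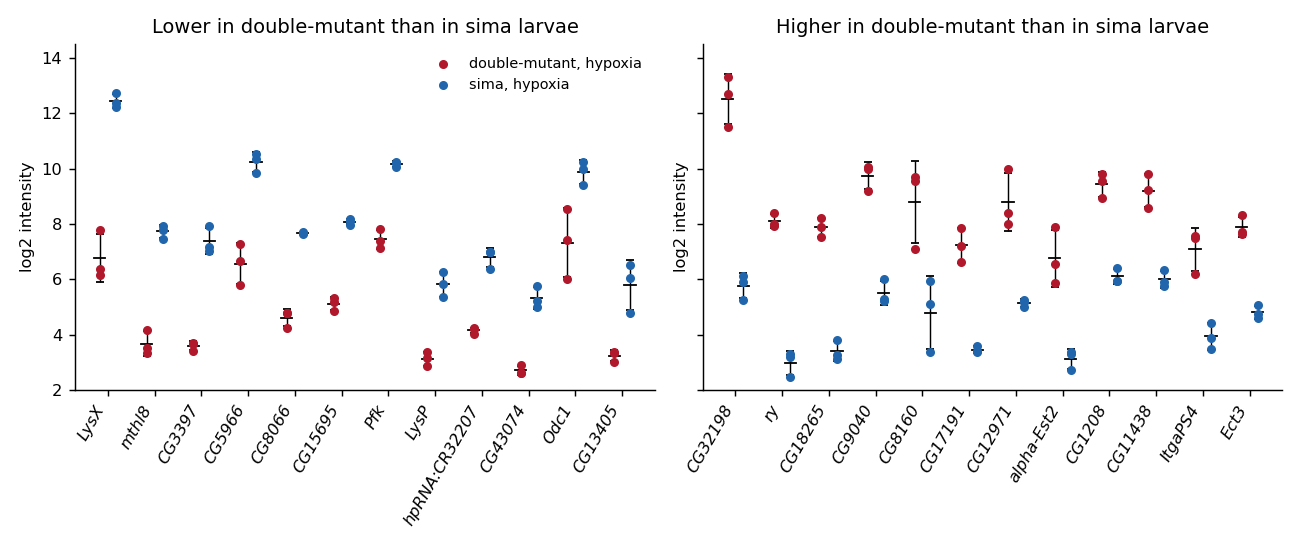
Log2 intensity of the 12 genes with the largest called falls (left panel) and the 12 with the largest called rises (right panel), in each double-mutant (red, left of each pair) and *sima* (blue) array in hypoxia; bars are the mean ± SD (n = 3). *LysX* is 50.9-fold lower and *CG32198* 106-fold higher in double-mutants, and arrays of the groups overlap in none of these genes.

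The largest rise was that of *CG32198* on 3L, at 13.29, 11.51 and 12.70 in double-mutants and 6.12, 5.27 and 5.91 in *sima* mutants. No array of 1 group came near the other, and the level was 106-fold higher in double-mutants (6.73, SE 0.94, adjusted p = 0.000139). *ry*, for xanthine dehydrogenase, the last enzyme of purine breakdown to urate, was at 8.39, 7.94 and 8.0 in double-mutants and 3.29, 2.47 and 3.18 in *sima* mutants (5.13, SE 0.30, adjusted p = 9.46e-10). Its mean was 2.98 in *sima* mutants at both oxygen levels and 7.09 to 8.36 in the other 6 groups, so that it was the *sima* mutants, and not the double-mutants, that stood apart from the other genotypes. *CG18265* had the smallest p of the comparison, at 7.87, 8.22 and 7.53 in double-mutants against 3.81, 3.14 and 3.27 in *sima* mutants (4.47, SE 0.20, adjusted p = 1.08e-11).

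Other rises of at least 8-fold were measured for *CG9040* (4.25), *CG8160* (3.99), *CG17191* (3.77), *CG12971* (3.65), *CG11438* (3.21) and *CG1208* (3.33), all log2 changes. *alpha-Est2*, for a carboxylesterase, rose by 3.64 and *ItgaPS4*, for an alpha subunit of integrin, by 3.15. *Ect3*, for a beta-galactosidase, was at 8.31, 7.63 and 7.71 in double-mutants and 4.76, 4.60 and 5.06 in *sima* mutants (3.08, SE 0.27, adjusted p = 3.11e-07). *CG8160* was at 9.71, 9.57 and 7.08 in double-mutants against 5.93, 3.36 and 5.10 in *sima* mutants. Its groups did not overlap but both spread widely, and its adjusted p of 0.000959 was 0.0117 without replicate 1 of the double-mutants, and the call was also lost without replicate 2 of *sima*. The call of *CG1208* was lost without replicate 1 or 2 of *sima* or replicate 1 of the double-mutants (highest adjusted p 0.0146), and that of *alpha-Est2* without any 1 array except replicate 2 of the double-mutants (highest adjusted p 0.057).

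Detoxification genes moved in both directions. Of 34 glutathione S-transferases, which conjugate foreign and oxidized compounds, 3 rose and 0 fell, beside 0.48% of all probe sets called higher. All 3 lie in the *GstD* cluster on 3R, an arm with 1.58% of its probe sets called. *GstD3* was at 11.52, 11.57 and 11.14 in double-mutants and 8.78, 8.13 and 8.62 in *sima* mutants (2.90, SE 0.45, adjusted p = 0.000559). *GstD5* was at 8.02, 7.25 and 7.40 in double-mutants against 5.59, 5.59 and 5.67 in *sima* mutants (1.94, SE 0.26), and *GstD1* at 13.90, 13.87 and 13.82 in double-mutants against 13.14, 13.09 and 13.20 in *sima* mutants (0.72, SE 0.12). The *GstD* genes are close paralogs, and signal shared between their probe sets cannot be told apart. *GstD1* was no longer called without replicate 2 of *sima* or replicate 1 of the double-mutants, and none of the 3 was called with the muscle, midgut and testis levels as covariates. The midgut level itself did not overlap between the genotypes, so that fit cannot tell tissue content and genotype apart.

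The cytochrome P450 family oxidizes hormones, lipids and foreign compounds. Of its 80 measured transcripts 1 was higher and 3 were lower, beside 0.48% and 0.559% of all probe sets, and the list median was 0.10. *Cyp4e3* (-2.44, adjusted p = 0.00211), *Cyp6a8* (-2.18, adjusted p = 0.00535) and *Cyp4p2* (-1.33, adjusted p = 0.00166) fell, and its paralog *Cyp4p1* rose (1.41, adjusted p = 0.00405). The calls of *Cyp4e3* and *Cyp4p2* were lost without replicate 3 of *sima* or replicate 2 or 3 of the double-mutants, that of *Cyp4p1* without any 1 array except replicate 3 of *sima*, and that of *Cyp6a8* whichever of the 6 was left out. None of the 4 was called with the muscle, midgut and testis levels as covariates, a fit with the same limit. Between *dERR* mutants and *w1118* in hypoxia 17 of the 80 were higher and 2 lower, with a median of 0.43. The shares of all probe sets there were 2.4% and 3.77%. Among 13 immune peptides 1 was called between double-mutants and *sima* mutants in hypoxia, and it was higher, beside 0.48% of all probe sets. This was *Drsl3*, a relative of the antifungal peptide gene *Drs*, at 7.79, 6.99 and 6.86 in double-mutants and 4.64, 4.70 and 4.97 in *sima* mutants (2.45, SE 0.31, adjusted p = 3.48e-05).

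In the other 32 of 40 lists 0 of 618 list entries were called in limma, 70 were at an unadjusted p under 0.05 and 1 was called by SAM. A gene held by several lists counts in each of them. Over all probe sets 1.04% were called in limma, and 2437 of 18769 were at an unadjusted p under 0.05. The 32 lists include ecdysone synthesis and response, the proteasome, DNA replication and both sets of ribosomal proteins. In some of these lists the list means of the 2 groups did not overlap, which was not tested. The 8 heat shock proteins had a median change of 0.40 with 0 below 0, and list means of 10.63 to 11.00 over double-mutant arrays against 10.17 to 10.61 over *sima* arrays, a narrow gap. Of the 8, 1 was at an unadjusted p under 0.05 in limma. Groups did not overlap for 3 of them, beside 17.7% of all probe sets. The 11 genes of dopamine metabolism and cuticle tanning had a median of 0.74, with list means of 6.84 to 7.07 in double-mutants against 6.11 to 6.44 in *sima* mutants. List means were also apart for ER folding (9.41 to 9.57 in double-mutants, 9.17 to 9.36 in *sima* mutants) and lipid storage and breakdown (8.80 to 8.91 and 9.01 to 9.07). Among the lists that mark tissues, the mean log2 level over neuron transcripts was 5.72 to 5.83 in double-mutants and 5.97 to 6.03 in *sima* mutants, and over fat body transcripts 13.27 to 13.46 in double-mutants and 13.05 to 13.13 in *sima* mutants, neither of which overlapped. Ranges overlapped for muscle (9.39 to 10.24 in double-mutants, 9.15 to 10.02 in *sima* mutants), testis (6.53 to 7.42 in double-mutants, 6.16 to 7.39 in *sima* mutants), hemocytes, trachea, salivary glue and cuticle proteins. With the muscle, midgut and testis means of each array as covariates 180 probe sets were called, 94 of them among the 195. The midgut list holds *LysX* and *LysP*, and its means did not overlap between the genotypes. A call lost or kept in that fit therefore cannot be assigned to tissue content or to genotype. All called glycolytic and glycogen genes named above, *Ald1*, *Gapdh2* and *PyK* included, were called in that fit.

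The second question was whether the double-mutant differed from *sima* in the same way without hypoxia. In normoxia 190 probe sets (1.01%) were called, of which 74 were higher and 116 lower. The normoxic count was 102 or 119 without replicate 2 or 3 of *sima* and 125 or 92 without replicate 1 or 3 of the double-mutants. Calls at both oxygen levels were shared by 97 probe sets, or 49.7% of the hypoxic calls and 51.1% of the normoxic ones, all in the same direction, and 192 of the 195 hypoxic calls had the same sign in normoxia, as did 68.4% of all probe sets. Glycolysis had 6 falls of 10 in normoxia, beside 0.618% of all probe sets, with a median of -1.33, and glycogen and trehalose 2 of 10. *Pfk* changed by -1.89 (SE 0.22), *Pgi* by -2.0 (SE 0.24), *LysX* by -5.39 and *ry* by 5.31 in normoxia. *Glyp* and *AGBE* changed by -1.17 and -0.85 in normoxia, which did not pass, but their difference between oxygen levels was not called either.

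The difference between the hypoxic and the normoxic change was called for 3 probe sets (0.016%) of 2 genes, with 557 at an unadjusted p under 0.05. In a fit of only the arrays compared the count was 0. *TrpRS*, for the tryptophanyl-tRNA synthetase that loads tryptophan for translation, was at 9.0, 8.69 and 8.55 in double-mutants in hypoxia against 7.05, 7.10 and 7.05 in *sima* mutants in hypoxia at 1 probe set (1.68, SE 0.12, adjusted p = 4e-08). At a further probe set it was at 10.05, 10.06 and 9.80 in double-mutants and 8.18, 8.34 and 8.42 in *sima* mutants (1.65, SE 0.10). In normoxia the changes were 0.17 and 0.35, and the differences between oxygen levels 1.51 (SE 0.17, adjusted p = 0.00016) and 1.30. At the first of these probe sets the mean was 8.75 in hypoxia and 7.18 in normoxia in double-mutants, and 7.07 and 7.01 in *sima* mutants. The remaining *TrpRS* probe set, the brightest on average over the 26 arrays, changed by 0.24 in hypoxia (SE 0.20, adjusted p = 0.723), so the rise was not seen by all probes to the gene. This probe set was added after its values were seen. Over 18 aminoacyl-tRNA synthetases, 1 probe set each, 0 were called for the hypoxic change in limma or SAM. Of the 18, 3 were at an unadjusted p under 0.05 for that change, beside 2437 of all 18769 probe sets. For *CG43074* the change was -2.61 in hypoxia and -0.11 in normoxia, a difference of -2.50 (SE 0.28, adjusted p = 0.00016). This came from the *sima* mutants, whose mean was 5.32 in hypoxia and 2.75 in normoxia (2.57, SE 0.20, adjusted p = 5.66e-08), while that of double-mutants was 2.71 in hypoxia and 2.64 in normoxia. *GstD5* changed by 1.94 in hypoxia and -0.30 in normoxia, and that difference of 2.24 (SE 0.36) had an adjusted p of 0.013. For *Pfk* the difference was -0.83 (SE 0.31), and of the 10 glycolytic genes 0 differed between oxygen levels (2 at an unadjusted p under 0.05; SAM was not run on this difference).

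**Figure D3:**
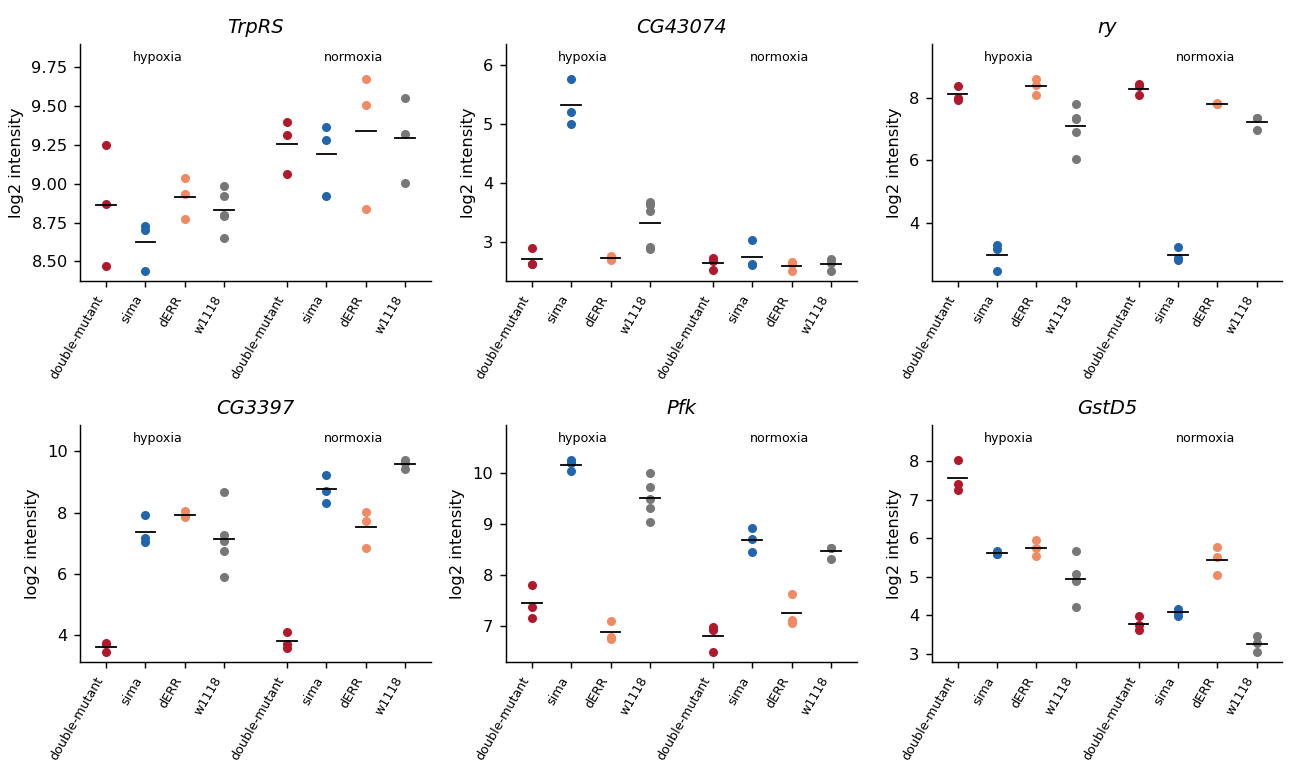
Log2 intensity of 6 genes in all 8 groups, with the hypoxic groups left of the normoxic ones; points are arrays and bars group means (n = 5 for *w1118* in hypoxia, 3 otherwise). *TrpRS* is drawn at its brightest probe set, not at those that were called. This probe set changed by 0.24 between double-mutants and *sima* mutants in hypoxia (limma, adjusted p = 0.723). *CG43074* is high in *sima* mutants in hypoxia (mean 5.32), while *ry* is low in *sima* mutants alone at both oxygen levels (mean 2.98) and *Pfk* is low in both genotypes that lack dERR.

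The third question was whether loss of dERR changed the same genes with and without Sima. In hypoxia 1157 probe sets (6.16%) were called between *dERR* mutants and *w1118*, a comparison with 5 control arrays, of which 450 were higher and 707 lower. That count moved with single arrays, to 1821 or 755 without replicate 1 or 3 of *w1118* and 626 or 526 without replicate 2 or 3 of *dERR*. Of the 195 calls in the *sima* background 81 were also called there, 70 in the same direction and 11 in the opposite one, which is 41.5% of the first set and 7% of the second. Glycolytic genes were among those shared, with 8 of 10 lower in *dERR* mutants than in *w1118*, beside 3.77% of all probe sets, and a median of -1.60 in both comparisons. *Pfk* changed by -2.64 (SE 0.19) there, *Pgi* by -2.71, *Pgk* by -1.81, *Ald1* by -1.88 and *Eno* by -1.40. For *Pfk* the difference between the backgrounds was -0.08 (SE 0.29, adjusted p = 0.955). For the 10 glycolytic genes it was called in 0, with 1 at an unadjusted p under 0.05, beside 2912 of all 18769 probe sets. That 1 glycolytic gene was *Pglym78*, which changed by -1.74 in the *sima* background and -0.61 in that of *w1118* (difference -1.14, SE 0.24, adjusted p = 0.0139).

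Differences between the backgrounds were called for 128 probe sets (0.682%), of which 76 were higher and 52 lower in the *sima* background, and 46 of them are among the 195. The count was 254 without replicate 1 of *w1118*, 84 without replicate 3 of *sima* and 85 without replicate 3 of *dERR*. *CG3397* changed by -3.77 in the *sima* background and 0.80 in that of *w1118* (difference -4.57, SE 0.59, adjusted p = 0.000126). *LysP* changed by -2.69 and 0.43 in the *sima* and *w1118* backgrounds (difference -3.12, SE 0.32), whereas *LysX* changed by -5.67 and -4.35 and its difference was not called (adjusted p = 0.348). *UGP* changed by -1.09 in the *sima* background and 0.14 in that of *w1118* (difference -1.23, SE 0.23, adjusted p = 0.00586). *ry* rose by 5.13 in the *sima* background and by 1.27 in that of *w1118* (difference 3.86, SE 0.40). Opposite signs were called in both comparisons for *Cyp6a8*, with a change of -2.18 in the *sima* background and 1.58 in that of *w1118* (difference -3.76), *Cyp4p2* (-1.33 and 1.21) and *Cyp4p1* (1.41 and -1.23).

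**Figure D4:**
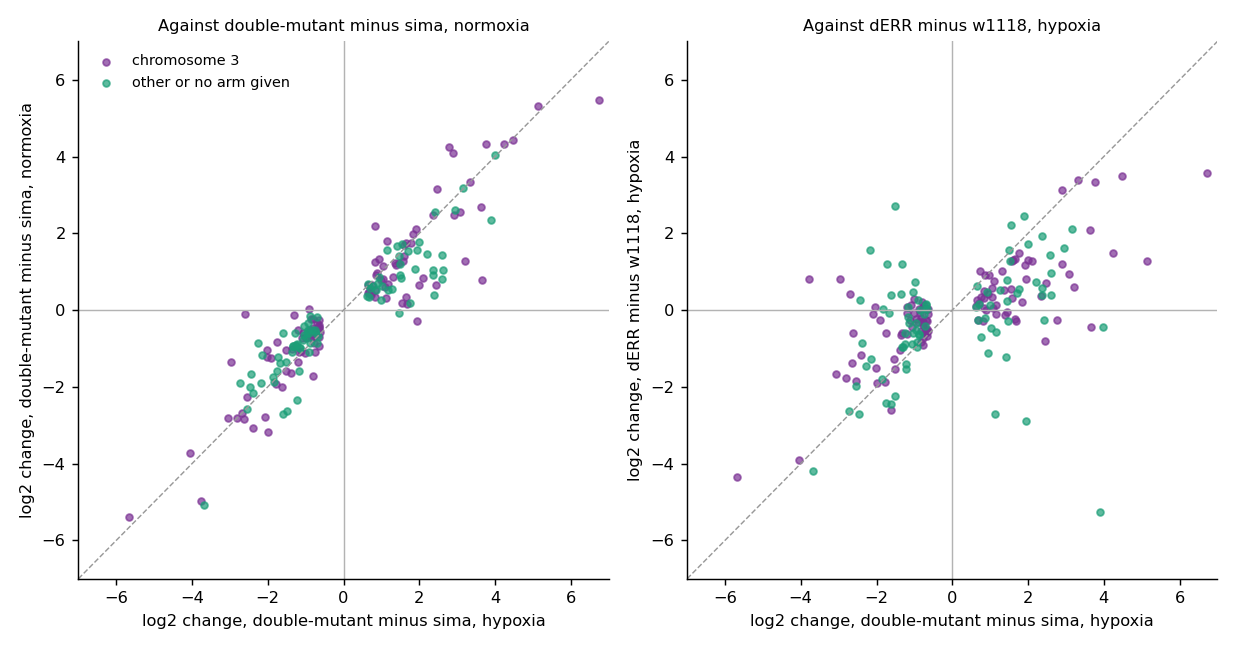
For the 195 probe sets called in hypoxia, the log2 change of double-mutant against *sima* in hypoxia (x axis) is plotted against the same change in normoxia (left) and that of *dERR* against *w1118* in hypoxia (right); purple points lie on chromosome 3, green points on other arms or none, and the dashed line marks equality. In normoxia 192 points keep their sign, against 68.4% of all probe sets, and in the *dERR* comparison 144 do, against 60.8% of all probe sets.

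A called difference between double-mutant and *sima* larvae can arise from either genotype, so each of the 195 was sorted by whether the hypoxic means of *dERR* and *w1118* lay on the double-mutant or on the *sima* side of the midpoint between those 2 groups. This sorting was chosen after the values were seen and is a description with no test. In 77 probe sets (39.5%; 25 higher, 52 lower) *dERR* lay with the double-mutant and *w1118* with *sima*. They include *Pfk*, *Pgi*, *Pgk*, *Ald1*, *Eno*, *Gapdh1*, *Pglym78*, *Glyp*, *Glys*, *AGBE*, *Pgm1*, *LysX*, *mthl8*, *CG5966*, *Odc1*, *CG32198* and *CG18265*. In 82 (42.1%; 39 higher, 43 lower) both *dERR* and *w1118* lay on the double-mutant side, as for *ry*, *CG9040*, *CG8160*, *CG43074*, *LysP*, *CG15695*, *UGP*, *Sodh1*, *Cyp4e3* and *Cyp6a8*. In 26 (13.3%; 19 higher, 7 lower) the double-mutant stood alone, as for *TrpRS*, *CG3397*, *CG12971*, *GstD1* and *GstD5*. In the last 10 (5.13%) *w1118* lay with the double-mutant and *dERR* with *sima*, among them *Drsl3* and *Cyp4p1*. The midpoint is a coarse divide, and *PyK* shows its limit. Its mean was 9.88 in double-mutants, 11.17 in *sima* mutants, 9.57 in *dERR* mutants and 10.52 in *w1118*, which puts it among the 82 although it was also called lower in *dERR* mutants than in *w1118* (-0.95, adjusted p = 0.000165).

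The called probe sets were unevenly spread over chromosomes. Of the 163 calls with a chromosome arm, 112 (68.7%) were on chromosome 3, which holds 44.9% of the placed probe sets tested. The share called was 2.18% on 3L and 1.58% on 3R, against 0.65% on 2L, 0.951% on 2R and 0.366% on X. On chromosome 3 as a whole it was 1.84%, beside 0.683% on all other arms together. In normoxia the same shares were 1.66% and 0.75%, whereas between *dERR* and *w1118* in hypoxia they were 7.18% and 7.68%, and between *sima* and *w1118* in hypoxia 5.4% and 5.44%. Both *sima* and *ERR* lie on chromosome 3, and the double-mutant chromosomes are recombinants. The loss of dERR and other differences between the third chromosomes therefore cannot be told apart. This holds for genes on other arms as well, because a difference on chromosome 3 need not act only on genes there. Whether the other chromosomes were matched between the 2 genotypes is not stated in the sources used here. *LysX*, *LysP*, *mthl8*, *CG3397*, *ry*, *CG32198*, *CG18265*, *TrpRS*, *CG43074* and the *GstD* genes all lie on chromosome 3. Of the 7 glycolytic genes called, 5 lie on other arms (*Pfk*, *Pgi* and *Gapdh1* on 2R, *Pgk* and *Eno* on 2L), as do *Glyp* (2L) and *AGBE* (2R). Of the 112 calls on chromosome 3, 45 (40.2%) showed the pattern in which *dERR* lay with the double-mutant and *w1118* with *sima*, and of the 51 on other arms 26 (51.0%).

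**Figure D5:**
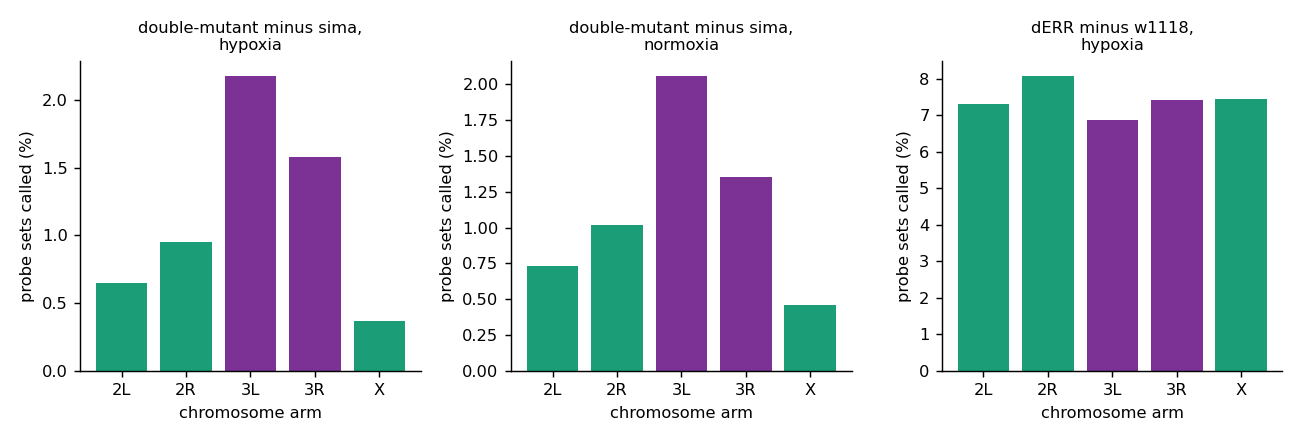
Percentage of the tested probe sets on each large chromosome arm that were called, for double-mutant against *sima* in hypoxia and in normoxia and for *dERR* against *w1118* in hypoxia; purple marks the arms of chromosome 3, and each panel has its own scale. For double-mutant against *sima* the arms 3L (2.18%) and 3R (1.58%) stand highest in hypoxia, while for *dERR* against *w1118* the 5 arms lie close together.

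Array medians ranged from 35.7 to 46.13 in linear intensity over the 26 arrays, and on the log2 scale replicates varied alike, with a median SD of 0.165 over probe sets in double-mutants and 0.163 in *sima* mutants in hypoxia. The replicates are separate pools of larvae, and 3 arrays a group limit the precision of every change given.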

How the data were processed

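RNA of whole larvae was hybridized to Affymetrix Drosophila Genome 2.0 arrays. The values used are linear intensities deposited by the authors after RMA (version, and whether all arrays were processed together, not given in the sources used here), and log2 was taken here. Of 18952 probe sets 183 controls were left out, and 18769 were tested. Genes were named through the platform annotation, with symbols brought up to date: 13646 probe sets have 1 gene, 402 have several and 4721 have none. The files name no genome build, so chromosome arms are given without coordinates.

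Limma 3.58.1 in R 4.3.3 fitted 1 model of 8 groups to 26 arrays (18 degrees of freedom), with moderated tests, two-sided, and Benjamini-Hochberg adjustment over all probe sets. The double-mutant was set against *sima* in hypoxia and in normoxia, *dERR* against *w1118* in hypoxia, and 2 interaction contrasts tested the differences between these. A call needed at least 1.5-fold and an adjusted p under 0.01, after the thresholds of the study. SAM, the test of the study, was run as an alternative, together with other normalizations, filters, limits, tissue covariates, a fit of the compared arrays alone, a replicate block, and each array left out in turn.

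Genes named are the 12 largest called rises and falls with groups that do not overlap, the mutated genes, 6 genes measured separately in the study, called list members (up to 6) and the largest interactions. Others were chosen after their values were seen. A gene in a list is represented by its brightest probe set. Of 549 list names, 114 have no probe set of their own. The members and lists were chosen with earlier results of these data known.

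Replicate numbers in the titles are not said to mark a shared batch. In hypoxia, same-numbered double-mutant and *sima* arrays deviated together (r = 0.46, 0.52 and 0.43 across probe sets). In normoxia they did not (-0.47, -0.18 and -0.22). Deviations within a group are not independent of each other, so these r values cannot settle whether the numbers mark pairs. The test was checked on simulated data.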

Additional observations from a re-analysis of the deposited data

Results flagged for a closer look

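The change of the double-mutant against *sima* differed between hypoxia and normoxia for 2 genes, by an interaction test in limma. The difference was -2.50 for *CG43074*, and 1.51 and 1.30 for 2 probe sets of *TrpRS*. None was called in a fit of only the arrays compared, where the count was 0.

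The change on loss of dERR in hypoxia differed between the *sima* and the *w1118* background by the same kind of test, and the 4 largest called differences in each direction are given here. *CG7214* changed by -2.62 (adjusted p = 0.112) in the *sima* background and 3.31 in that of *w1118*, a difference of -5.93 (SE 1.10, adjusted p = 0.00516). *Jon44E*, for a digestive serine protease, had a difference of -4.77 (-1.09 and 3.68), *CG3397* of -4.57 and the cytochrome P450 gene *Cyp6a17* of -4.56 (-0.27 and 4.28). *BomT2*, for an immune-induced peptide, had a difference of 5.65 (2.63, adjusted p = 0.0709, and -3.02). *CG8160*, *CG12971* and *ry* had differences of 4.42, 4.08 and 3.86. *CG7214*, *Jon44E*, *Cyp6a17* and *BomT2* were called between *dERR* and *w1118* and not between double-mutants and *sima* mutants.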

How the results depend on the processing

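Of the called changes named, none changed sign under any alternative. The 195 calls in hypoxia became 358 at an adjusted p under 0.05 and 51 in a fit of the compared arrays alone. They numbered 151 by SAM (113 of them among the 195), 150 with arrays centred on their medians, 175 after quantile normalization and 202 with the replicate block, and 123 to 169 with 1 array left out. For the normoxic comparison the corresponding counts were 347, 75 and, by SAM, 287, with 414 under tissue covariates and 92 to 150 with 1 array left out. For *dERR* against *w1118* they were 1838, 200 and, with tissue covariates, 187, with 526 to 1821. The 3 differences between oxygen levels became 10, 0 and 6 (3 to 4 with 1 array left out), and the 128 between backgrounds 393, 47 and 21, with 80 after centring and 84 to 254 with 1 array left out. The replicate block gave 169 calls in normoxia, 913 for *dERR* and 141 between backgrounds. Of the probe sets named, it ended the call of 1, a probe set of the glucose transporter gene *Glut1* (adjusted p = 0.0118). Of 60 named probe sets called, 43 were called without each array in turn and 17 were not. The fit of the compared arrays alone ended the call of 31 of the 60, and tissue covariates that of 17. The causes of these shifts were not tested. Dim probe sets, such as those of *UGP* and *CG43074*, lie near the array's floor, where a change may be understated.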
